A study of Homo sapiens with 4 samples.

Results

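The constitutive proteasome subunits are 34 genes, PSMA1 to PSMA7, PSMB1 to PSMB7, PSMC1 to PSMC6 and PSMD1 to PSMD14, chosen by name from the 58825 genes counted. They were chosen by gene name and not by their own values, although earlier results of these data, the shifted chromosomes among them, were known. The question put to them was whether the mRNA of each subunit moved with the other genes of its own chromosome when MET-KO and MET+ cells were compared, or stayed at one level with the rest of the complex. All 34 passed the filter on low counts. The cells were LoVo, an established human colorectal cancer line that carries a constitutively active form of the receptor tyrosine kinase MET. The 2 MET+ libraries, with the genotype label WT, came from control cells carrying GFP. The 2 MET-KO libraries, labelled MET knock out, came from cells in which MET was cut by CRISPR/Cas9 and single clones were picked. The sources do not say whether both MET-KO libraries are 1 clone, so an effect of losing MET and a difference of the picked cells cannot be told apart. The libraries also differed in whether protein-coding genes of chromosome Y had counts, which they had in both MET-KO libraries and in neither MET+ library. Chromosome copy number was not measured, so copy number and expression per copy cannot be told apart in a chromosome median.

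The proteasome degrades proteins that carry ubiquitin chains. Its 20S core is a barrel of alpha rings, which gate the entrance, around beta rings, which hold the proteolytic sites. The 19S regulatory particle sits on its end. The ring of PSMC ATPases in the 19S base unfolds the substrate, and the PSMD subunits of base and lid bind ubiquitin, scaffold the particle and remove the chain. Apart from the assembly chaperones named next, each gene supplies a set position in the constitutive particle. The 34 genes are spread over 15 chromosomes. PSMD5, PSMD9 and PSMD10 carry subunit names but encode assembly chaperones of the ATPase ring. When proteasome activity drops, the transcription factor NFE2L1 raises subunit genes together through antioxidant response elements in their promoters.

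The RNA was measured as 3′ tags, about 1 read for each transcript near its end, and the totals were 8429142 and 10286552 counts for MET+ and 10137583 and 10228991 counts for MET-KO. Mitochondrial genes took between 12.4 and 15.4% of the counts. The edited gene MET kept 25.7% of its MET+ level (338 and 336 against 84.4 and 88.9 CPM). CPM are counts scaled to a library of 1000000, with TMM scaling of the libraries unless stated otherwise. Of 13 intestinal epithelium markers, 8 were lower and 3 higher in MET-KO cells, beside 26.9% and 27.2% of all tested genes. CDH17 and GPA33 had 0 counts in each MET-KO library, KRT20 had 0 in each MET+ library and CDX1 was at 0 in all. The summed level of the 13 was 9248 to 9556 CPM in MET+ and 7870 to 8449 CPM in MET-KO libraries. Summed markers of other cell types, also by library total, were far lower. They reached 2.14 against 4.50 CPM at most for 6 fibroblast markers (2 at 0 in all libraries), 9.24 against 1.17 for 6 haematopoietic ones (3 at 0, PTPRC and CD3E among them) and 0.875 against 0.0986 for 4 endothelial ones (2 at 0). The part of these differences in the subunit values was not tested.

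Promoter sequences are shown for 4 of the members with a stretch long enough to print. PSMA3 and PSMB5 lie on chromosome 14 and fell in MET-KO cells, and PSMA5 and PSMD3 rose. The sequences are RefSeq (GRCh38.p14), from the last 250 bases before the start, cut to the stretch outside every exon of GENCODE 29. Capitals mark CCAAT (both strands, so also ATTGG) and the core of the antioxidant response element, TGACNNNGC (both strands).
PSMA3, chr14:58244593-58244830, plus strand: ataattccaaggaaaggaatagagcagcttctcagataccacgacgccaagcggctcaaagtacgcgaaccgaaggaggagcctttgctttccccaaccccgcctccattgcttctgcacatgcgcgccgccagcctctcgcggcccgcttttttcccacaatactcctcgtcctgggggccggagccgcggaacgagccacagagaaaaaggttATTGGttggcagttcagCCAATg
PSMB5, chr14:23035231-23035470, minus strand: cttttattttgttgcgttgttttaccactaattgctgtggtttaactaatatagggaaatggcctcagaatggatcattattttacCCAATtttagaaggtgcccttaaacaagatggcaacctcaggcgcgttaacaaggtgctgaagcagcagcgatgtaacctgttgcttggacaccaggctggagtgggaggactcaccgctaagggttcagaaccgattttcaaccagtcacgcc
PSMA5, chr1:109426449-109426698, minus strand: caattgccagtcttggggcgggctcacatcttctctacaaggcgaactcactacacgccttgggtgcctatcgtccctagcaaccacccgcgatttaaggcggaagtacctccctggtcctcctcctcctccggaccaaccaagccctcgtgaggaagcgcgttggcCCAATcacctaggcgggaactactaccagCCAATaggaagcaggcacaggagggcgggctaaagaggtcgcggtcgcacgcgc
PSMD3, chr17:39980557-39980796, plus strand: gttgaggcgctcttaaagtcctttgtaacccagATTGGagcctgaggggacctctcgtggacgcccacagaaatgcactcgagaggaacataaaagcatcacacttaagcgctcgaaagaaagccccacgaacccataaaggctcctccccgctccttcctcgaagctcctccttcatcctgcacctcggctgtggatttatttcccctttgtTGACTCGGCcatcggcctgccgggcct
CCAAT stood in all 4, which were picked after values were seen. Stretches of 211 bases in PSMB4, which rose, and of 222 and 247 bases in PSMC6 and PSMD1, which fell, did not hold it. RefSeq windows were found for 29 members, 35 windows in all, and none for PSMA7, PSMB1, PSMB6, PSMB7 and PSMD4. CCAAT was in 15 of the 35 windows (42.9%), against 32.0% of 35116 windows of all genes. Of the 15 members with it, 9 rose, 3 fell and 3 did not pass the test. TGACNNNGC was in 7 windows (20%), against 10.9% of all windows, and of those 7 members 3 rose, 2 fell and 2 did not pass. Of all tested genes, with or without either motif, 27.2% rose and 26.9% fell. These are letter matches, not measured binding sites.

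The members moved in both directions. With edgeR's quasi-likelihood test and a Benjamini-Hochberg adjusted p under 0.05, 17 of 34 were higher in MET-KO cells and 8 were lower, beside 27.2% and 26.9% of the 13801 genes tested. Together 25 of 34 (73.5%) were called, against a background of 54.1%. Among genes with a mean of at least 5 on the log2 CPM scale, the background was 63.3%, and 23 of the 31 members in that range (74.2%) were called. The MET+ and MET-KO libraries did not overlap for 28 members (19 higher, 9 lower, 82.4%), which also held for 75.6% of all tested genes (38.5% higher, 37.1% lower). The median log2 fold change of the members was 0.18, and that of all tested genes 0.01. Scaling by library total alone raised the median of all genes to 0.11 and that of the members to 0.28, and the split became 18 higher and 3 lower, beside 31.6% higher and 21.7% lower of all genes under that scaling. PSMA3, PSMA4, PSMC1, PSMC6 and PSMD1 then no longer passed as lower. Bulk RNA gives shares of a library, so fewer cells of a type and less RNA per cell cannot be told apart. In all 10 alternative fits, 11 members kept call and direction: PSMA1, PSMA2, PSMA5, PSMB4, PSMC2, PSMD2, PSMD3, PSMD6 and PSMD13 as higher, PSMB1 and PSMB5 as lower.

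**Figure D1:**
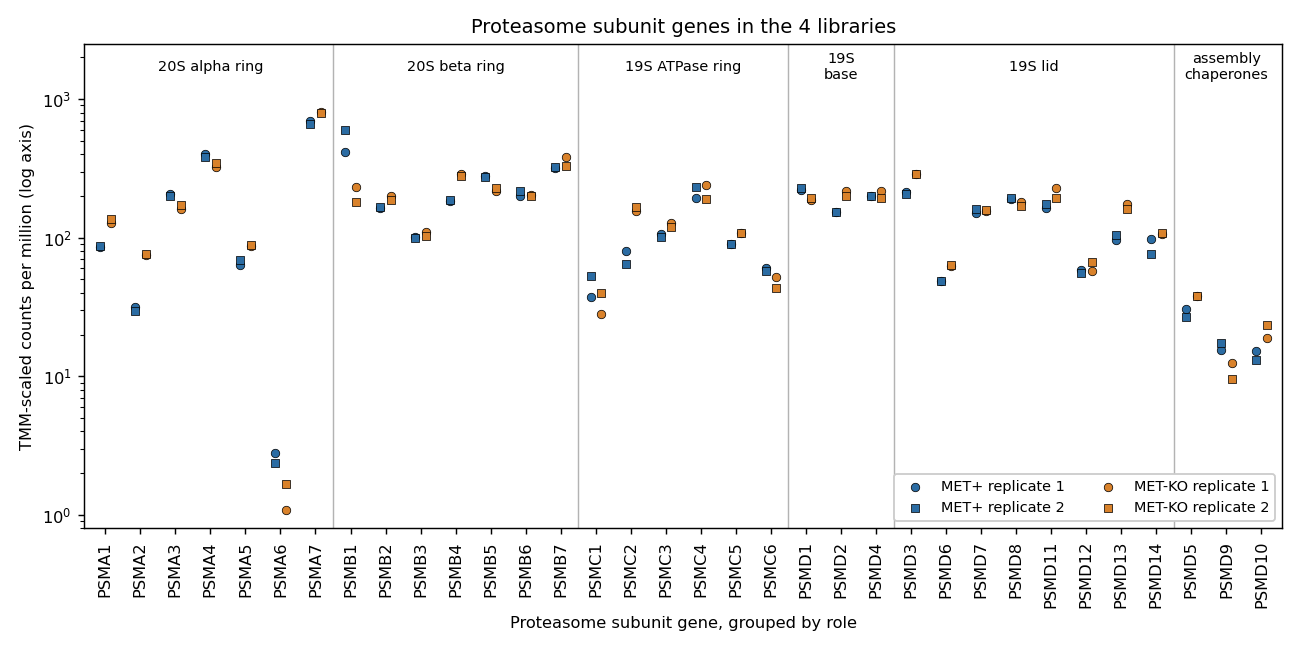
TMM-scaled CPM (log axis) of the 34 subunit genes, grouped by role, with 1 point for each library: blue for MET+ and orange for MET-KO, circles for replicate 1 and squares for replicate 2. PSMA2, PSMC2 and PSMD13 rise clearly in MET-KO, PSMB1 falls, and PSMA6 lies far under the other genes in all 4 libraries.

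The alpha ring held the largest rise. PSMA2 (chr7:42916857-42932223) had 31.5 and 29.8 CPM in MET+ cells, and 74.4 and 76.7 CPM in MET-KO cells. That is 2.47-fold higher, with a log2 fold change of 1.30 ± 0.11 (SE, adjusted p = 1e-11). PSMA1 went from 85.9 and 87.4 CPM to 127.7 and 136.8 (log2 fold change 0.61 ± 0.10, adjusted p = 2.46e-06). In both genes each MET-KO library lay above both MET+ libraries.

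PSMA5 rose from 63.3 and 69.2 CPM to 87.4 and 89.1 (0.41 ± 0.10, adjusted p = 9.79e-04). PSMA7 was among the small rises, at 0.24. PSMA3 and PSMA4 went down by about the same amount. PSMA3 had 208.1 and 201.0 CPM in MET+ and 162.1 and 171.6 in MET-KO cells (-0.29 ± 0.09, adjusted p = 0.00731). PSMA4 had 401.3 and 384.0 against 323.5 and 343.8 (-0.23 ± 0.09, adjusted p = 0.0272), and its call was lost in 6 of the 10 alternative fits.

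PSMA6 was counted at 23, 23, 11 and 18 reads, under 3 CPM in every library, where the lowest count of any other member was 104. The last 300 bases of PSMA6 lie wholly within exons of AL121594.1 on the same strand, which itself had 0 counts in all libraries. How reads in shared exons were assigned is not given in the sources used here, so the PSMA6 level is uncertain. Its log2 fold change of -0.89 ± 0.46 did not pass (adjusted p = 0.0987).

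The members of this ring moved apart. The ratio of PSMA2 to PSMA3 counts was 0.152 and 0.148 in MET+ and 0.459 and 0.447 in MET-KO libraries, a 3.02-fold change.

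The beta ring held the largest fall. PSMB1, near the end of the long arm of chromosome 6, had 414.1 and 597.7 CPM in MET+ and 233.4 and 181.5 CPM in MET-KO cells. It kept 0.410 of its level, a log2 fold change of -1.29 ± 0.12 (adjusted p = 5.5e-11). The MET+ libraries differed from each other by 0.53 on the log2 scale, the widest gap of any member in that group, yet both lay above both MET-KO libraries. PSMB1 is a structural beta subunit without a proteolytic site.

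The subunits with proteolytic sites are PSMB5, PSMB6 and PSMB7, and they moved little. PSMB5, the chymotrypsin-like one, fell from 277.9 and 273.6 CPM to 217.5 and 226.8 (-0.31 ± 0.09, adjusted p = 0.00382). PSMB6, the caspase-like one, had 199.5 and 217.3 against 203.6 and 198.4 (-0.05 ± 0.09, adjusted p = 0.656), and the groups overlapped. PSMB7, the trypsin-like one, did not pass either (0.15 ± 0.09, adjusted p = 0.181).

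PSMB4, another structural beta subunit, rose from 183.4 and 187.7 CPM to 288.8 and 279.7 (0.61 ± 0.09, adjusted p = 5.96e-07). PSMB2 rose by 0.22, a call lost in 6 alternative fits, and PSMB3 stood at 0.08 without passing. The PSMB4 to PSMB1 ratio thus moved from 0.443 and 0.314 in MET+ to 1.24 and 1.54 in MET-KO libraries.

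In the ATPase ring PSMC2 stood apart. PSMC2, from chromosome 7 like PSMA2, had 79.8 and 64.7 CPM in MET+ and 155.9 and 167.3 CPM in MET-KO cells (2.24-fold, 1.17 ± 0.10, adjusted p = 1.72e-11). PSMC3 and PSMC5 were called at 0.24 and 0.26, but each lost its call in at least 6 alternative fits. PSMC4 was not called (0.02 ± 0.11).

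The chromosome 14 ATPases went down. PSMC6 had 60.4 and 57.1 CPM against 52.1 and 43.5 (-0.30 ± 0.11, adjusted p = 0.028). Its call was lost in 5 alternative fits, and without MET-KO replicate 2 the value was -0.17. PSMC1 had 37.2 and 52.7 CPM against 28.0 and 39.97 (-0.41 ± 0.15, adjusted p = 0.0206), and its groups overlapped. Without MET+ replicate 2 the PSMC1 value was -0.14, and without MET-KO replicate 2 it was -0.68. The last 300 bases of PSMC1 lie within exons of NRDE2 on the opposite strand, and PSMC1 pseudogenes held up to 5.53% of its own count.

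Of the 11 non-ATPase genes of the 19S base and lid, 6 were called higher and 1 lower, beside 27.2% and 26.9% of all tested genes. The other 4 did not pass, and 4 of the 6 kept their call in all alternative fits. The lid gene PSMD13 went from 95.8 and 104.0 CPM to 173.9 and 160.0 (0.74 ± 0.10, adjusted p = 6.01e-08). PSMD3 went from 212.8 and 205.4 CPM to 287.4 and 288.0 (0.46 ± 0.09, adjusted p = 5.28e-05). PSMD2, a large scaffold subunit of the base, went from 153.0 and 153.8 to 215.9 and 199.2 (0.44 ± 0.09, adjusted p = 1.53e-04). In each of these 3 genes both MET-KO libraries exceeded both MET+ libraries.

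PSMD14, the deubiquitinase that cuts chains off at the lid, had 98.1 and 76.3 CPM in MET+ and 106.1 and 108.1 in MET-KO cells (0.30 ± 0.11, adjusted p = 0.0182). Its call was lost with DESeq2 and without MET+ replicate 2, where the value was 0.12, and without MET+ replicate 1 it was 0.49. PSMD11 had 163.6 and 175.4 against 228.5 and 193.3 CPM (0.31 ± 0.10, adjusted p = 0.00641). Its call was lost without MET+ replicate 1 and without MET-KO replicate 1, where the value was 0.19. PSMD6 was higher as well (0.37 ± 0.11). Of the 8 lid genes, 5 were called higher and 0 lower, beside 27.2% and 26.9% of all genes, and PSMD11 and PSMD14 are among the 5. PSMD7, PSMD8 and PSMD12 did not pass, with PSMD8 at 190.7 and 194.4 against 180.8 and 169.4 CPM (-0.14 ± 0.09).

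PSMD1, the other large base scaffold, went the opposite way to PSMD2, from 221.7 and 229.0 CPM to 186.8 and 193.3 (-0.25 ± 0.09, adjusted p = 0.0217). Its call was lost in 5 alternative fits. The ubiquitin receptor PSMD4 stayed within its spread (0.03 ± 0.09).

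The assembly chaperones were the least abundant group after PSMA6. PSMD10, on the X chromosome, rose from 15.1 and 13.1 CPM to 19.02 and 23.5 (0.60 ± 0.17, adjusted p = 0.00392). PSMD5 rose from 30.5 and 26.9 to 37.8 and 37.9 (0.40 ± 0.13, adjusted p = 0.00866). PSMD9 fell from 15.4 and 17.2 to 12.5 and 9.58 (-0.57 ± 0.19, adjusted p = 0.012). The last 300 bases of PSMD9 lie within same-strand exons of WDR66, which had between 15 and 25 counts, so how reads were shared bears on its level. The calls of all 3 were lost with DESeq2.

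The 9 members that did not pass, PSMA6 apart, lay between -0.14 and 0.15, with standard errors from 0.09 to 0.11. Leaving out 1 library turned the sign of PSMB6, PSMC4, PSMD4 and PSMD7, and scaling by library total that of PSMB6, so they have no direction here.

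As a whole the complex took more of the MET-KO libraries. The 34 genes held 0.527% of all counts of each MET+ library, and 0.590 and 0.600% of those of the MET-KO pair, a ratio of 1.13. On TMM-scaled CPM, which allow for the makeup of the libraries, the sums were 5363 and 5564 against 5869 and 5654, a ratio of 1.05. By role that ratio was 1.09 for the alpha ring, 0.891 for the beta ring, 1.19 for the ATPase ring, 1.04 for the rest of the base, 1.21 for the lid and 1.19 for the assembly chaperones. Single genes weigh on such sums. The group mean of PSMB1 went from 505.9 to 207.4 CPM, and that of PSMC2 from 72.2 to 161.6 CPM. The beta and ATPase ratios therefore do not show that these rings moved as groups. With 2 against 2 libraries an exact two-sided permutation test cannot give a p under 0.333, so these ratios carry no test.

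Where a chromosome was shifted as a whole, the subunits on it had its direction. The tested genes of chromosome 7, members left out, had a median log2 fold change of 0.50 (671 genes). Chromosome 14 had -0.52 (474 genes), chromosome 15 -0.43 (466 genes) and chromosome 12 -0.31 (761 genes). The medians of the other chromosomes with members lay within 0.2 of 0. All 9 members on chromosomes 7, 12, 14 and 15 had the sign of their chromosome. Of these, 8 were called, beside 54.1% of all tested genes. Most genes there shared that sign: 77.3% on chromosome 7, 66.2% on 12, 79.3% on 14 and 71.9% on 15. Both members on chromosome 7 were higher, and the 5 on chromosome 14, the 1 on 15 and the 1 on 12 had values below 0. Of the 25 members elsewhere, 15 were higher and 2, PSMB1 and PSMD1, were lower, beside 27.2% and 26.9% of all tested genes.

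**Figure D2:**
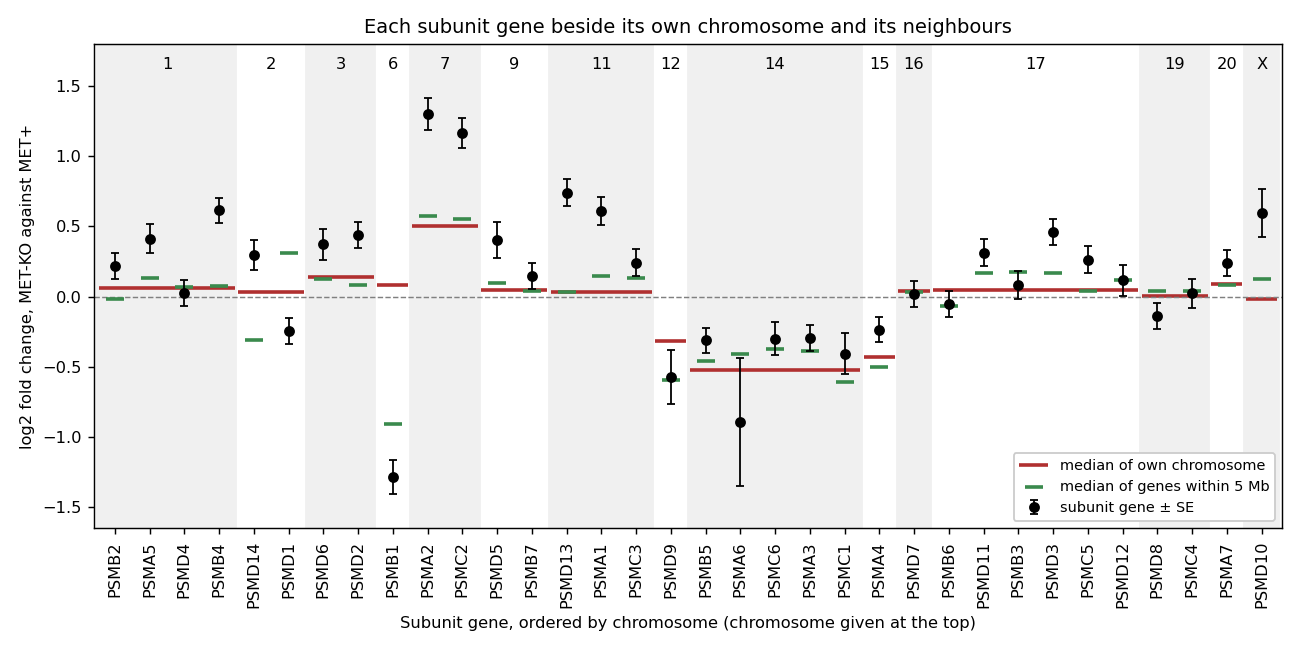
Log2 fold change of each subunit gene, MET-KO against MET+ (black points, bars are SE), in order of chromosome, with the median of its own chromosome (red line) and of the tested genes within 5 Mb (green dash). The 2 genes of chromosome 7 lie above a raised chromosome, and the 5 of chromosome 14 lie below 0 with their chromosome. PSMB1 lies far below chromosome 6 and less far below its neighbours.

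Across the 34 members the log2 fold change and the chromosome median had a Pearson correlation of 0.69 and a Spearman correlation of 0.58. These are descriptions across genes, which share libraries and, on 1 chromosome, the same median. PSMB1 lowered the value: without it Pearson's was 0.83. Over the 27 members not on chromosomes 7 and 14, PSMB1 among them, it was 0.34, so that gene and those chromosomes both bear on that value. The same Pearson value was 0.85 for 8 genes of the CCT chaperonin, 0.67 for 10 genes of the COP9 signalosome, 0.70 for 78 cytosolic ribosomal protein genes and 0.13 for all genes tested.

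Neighbours were compared next in place of the whole chromosome. With the median of the 14 to 173 tested genes within 5 Mb of each subunit, the Pearson correlation was 0.84 and the Spearman correlation 0.70. The SD of the members' log2 fold changes was 0.52 as measured, 0.39 after the chromosome median was subtracted and 0.30 after the median of the neighbours was subtracted. Without PSMB1 these values were 0.46, 0.28 and 0.29, so the neighbours were closer than the chromosome through that 1 gene.

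**Figure D3:**
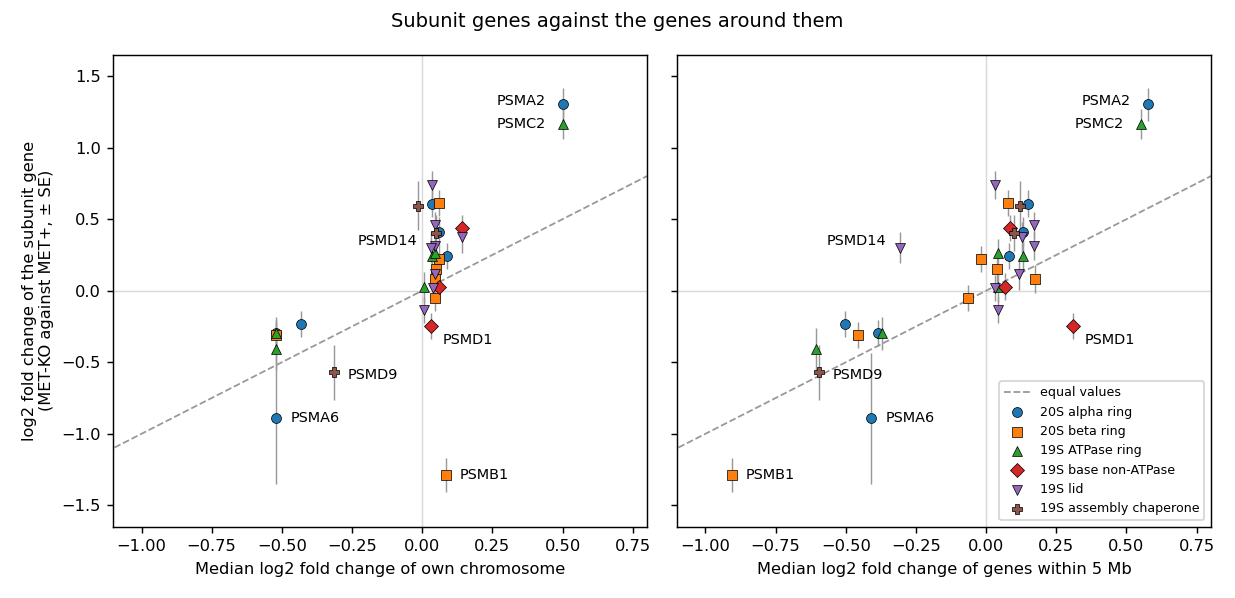
Log2 fold change of the 34 subunit genes (bars are SE, marker shape gives the role) against the median of their own chromosome (left) and of the tested genes within 5 Mb (right). Dashed lines mark equal values. PSMB1 lies below the line in both panels, farther from it on the left than on the right, and most members lie above it.

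PSMB1 shows the difference in detail. Chromosome 6 as a whole had a median of 0.08, and PSMB1 lay 1.37 under it (adjusted p = 1.35e-11). Its surroundings were examined after that value was seen. Of the 16 tested genes within 5 Mb, 15 had values below 0, 12 of them called lower and 1 gene called higher, with a median of -0.91. The adjoining genes TBP, which encodes the TATA-binding protein, and PDCD2 had log2 fold changes of -1.03 ± 0.19 and -0.79 ± 0.12. Only 4 tested genes lay between 5 and 10 Mb away, all below 0, with a median of -1.72. From 10 to 20 Mb the median of 37 genes was -0.02, and from 20 to 40 Mb that of 75 genes was 0.03. Against its neighbours PSMB1 was still lower, by 0.38 (adjusted p = 0.00799).

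**Figure D4:**
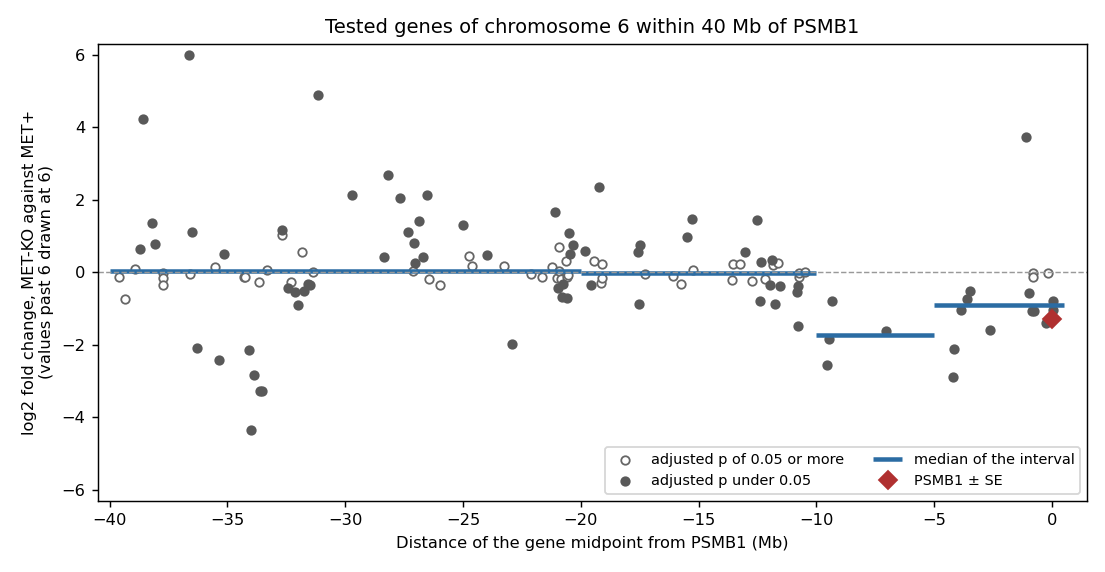
Log2 fold change, MET-KO against MET+, of the tested genes of chromosome 6 by distance of their midpoint from PSMB1 in Mb. Filled points passed the test, blue lines are the medians of the intervals, and 1 value past 6 is drawn at 6. The medians lie near 0 up to 10 Mb from PSMB1 and below 0 from there to the end of the chromosome, with PSMB1 (red, bar is SE) among the low genes.

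Other members also had neighbours unlike their chromosome. PSMD9 lay 0.26 under the median of chromosome 12 but 0.02 above its neighbours, whose median was -0.60. PSMD14 lies where the median was -0.31, on a chromosome with a median of 0.03, and stood 0.61 above those neighbours (adjusted p = 1.46e-05). PSMD1, on the same chromosome, lies where the median was 0.31 and stood 0.56 below it (adjusted p = 4.06e-06).

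The test against the chromosome itself asks which members left the level of the genes they lie among. In that refit 13 members were higher and 2 lower than their own chromosome, 44.1% of 34, beside a background of 51.7% (25.6% higher, 26.1% lower) and of 60.4% among the more highly expressed genes. With this reference the share apart from their chromosome was no larger than among all genes, while the split was uneven. By value, 26 of 34 members lay above their chromosome median and 8 below, with a median difference of 0.21. Over all tested genes that median was 0.00, and over genes whose mean log2 CPM was 5 or more it was -0.09.

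Both chromosome 7 genes rose past their chromosome, PSMA2 by 0.80 (adjusted p = 3.73e-07) and PSMC2 by 0.66 (adjusted p = 2.02e-06). The start of PSMA2 overlaps that of MRPL32, a mitochondrial ribosomal protein gene on the other strand, which had a log2 fold change of 0.96. DNAJC2, the gene beside PSMC2, had 0.37. On chromosome 14, 4 of the 5 members fell less than their chromosome, and of these PSMA3 passed the test, at 0.23 above it (adjusted p = 0.0382). PSMB5, at 0.21 above, missed the threshold (adjusted p = 0.0524), as did PSMA4 at 0.20 above chromosome 15 (adjusted p = 0.0676). Against the genes within 5 Mb this was reversed for 2 of them. PSMA3 did not pass there (0.09 above, adjusted p = 0.417), and PSMA4 did (0.27 above, adjusted p = 0.0126).

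The other members higher than their chromosome were PSMD13 and PSMA1 on chromosome 11, by 0.71 and 0.58. PSMB4 and PSMA5 on chromosome 1 were higher by 0.56 and 0.35. PSMD3 and PSMD11 on chromosome 17 were higher by 0.41 and 0.27, and PSMD10, PSMD5, PSMD2 and PSMD14 by between 0.27 and 0.61. The 2 below were PSMB1 and PSMD1, the latter by 0.28 (adjusted p = 0.0105). Against the genes within 5 Mb, PSMD11 did not pass (0.14 above, adjusted p = 0.219). PSMB2, not among the members apart from their chromosome, passed there (0.24 above, adjusted p = 0.0296). Which members stood apart thus depends on the reference. With a reference of genes whose mean log2 CPM was 5 or more, which lie lower, 20 members were higher and 2 lower (64.7%). Beside it stand 51.7% of all genes (30.3% higher, 21.4% lower) and 59.2% of the more highly expressed genes, so whether the members' share exceeds the background depends on the reference.

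The members were also tested against the median of the complex. That median is their own, so values lie on both sides of it by construction. Of the 34, 8 were higher and 11 lower (55.9%). The background was 57.1% (20.7% higher, 36.4% lower), and 69.9% among the more highly expressed genes. The share of members apart from the complex was thus no larger than among all genes. The higher ones were PSMA1, PSMA2, PSMB4, PSMC2, PSMD2, PSMD3, PSMD10 and PSMD13. All 5 members on chromosome 14 were lower than the complex, as were PSMA4, PSMB1, PSMB6, PSMD1, PSMD8 and PSMD9. Without MET+ replicate 2 the count was 12 in place of 19.

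As measured, the spread of the members was wider than that of the other complexes listed. The members' SD of 0.52 compares with 0.25 for the CCT chaperonin, 0.36 for the COP9 signalosome and 0.29 for cytosolic ribosomal protein genes. After the chromosome median was subtracted, the SDs were 0.39, 0.16, 0.27 and 0.21. Without PSMB1 the members' SD was 0.46, and 0.28 after subtraction, near that of the COP9 signalosome. The interquartile range, less open to single genes, fell from 0.62 to 0.32 in the members. In the other complexes, in the same order, it went from 0.23 to 0.24, from 0.26 to 0.23 and from 0.29 to 0.23. For genes whose mean log2 CPM was 5 or more it was 0.72, and 0.64 after subtraction. Whether the spread differs between complexes was not tested.

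The genes that work with these subunits were described from a list of 43, of which 40 were tested. Of those, 10 were higher and 11 lower (52.5%), beside the background of 54.1%. The small subunit SEM1, on chromosome 7, went from 208.9 and 226.0 CPM to 467.8 and 443.6 (log2 fold change 1.07 ± 0.09, adjusted p = 6.43e-12), which was 0.56 above its chromosome. It thus joined PSMA2 and PSMC2. The ubiquitin receptor ADRM1 had 172.8 and 172.7 against 169.1 and 150.0 CPM and did not pass (-0.11 ± 0.09).

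The inducible catalytic subunits, which replace their constitutive counterparts in the immunoproteasome, were both higher where counted. PSMB9, the counterpart of PSMB6, went from 5.56 and 8.31 CPM to 86.8 and 78.9 (3.56 ± 0.15, adjusted p = 5.45e-20). PSMB8, the counterpart of PSMB5, went from 28.3 and 36.5 CPM to 75.6 and 75.1 (1.21 ± 0.12, adjusted p = 1.87e-10). The count ratio of PSMB9 to PSMB6 moved 12.2-fold, from 0.0279 and 0.0383 to 0.426 and 0.398. That of PSMB8 to PSMB5 moved 2.87-fold.

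PSMB10, the counterpart of PSMB7, and the tissue-restricted PSMA8 and PSMB11 were listed at 0 counts in all libraries. By library total, that allows up to 0.356 CPM in the shallowest. The last 300 bases of PSMB10 lie within same-strand exons of AC040162.1, so its 0 cannot be read as absence. The activator genes PSME1 and PSME2, on chromosome 14, did not pass (-0.04 and -0.14) and stood 0.48 and 0.38 above their chromosome (adjusted p = 3.38e-05 and 6.65e-04).

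**Figure D5:**
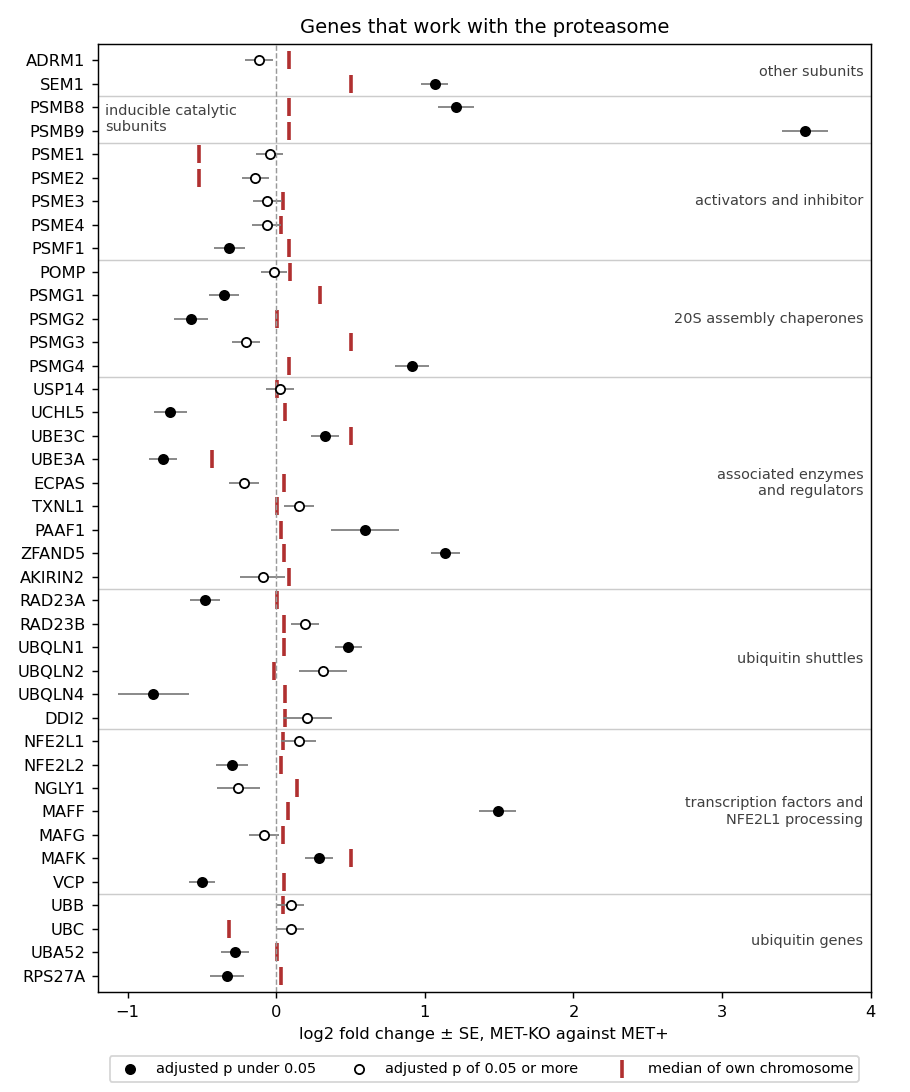
Log2 fold change ± SE, MET-KO against MET+, of the 40 tested genes that work with the proteasome, grouped by role. Filled points passed the test, and red bars mark the median of the gene's own chromosome. PSMB9 reaches 3.56, SEM1 lies above the raised median of chromosome 7, and PSMG3 lies below it.

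The chaperones that assemble the 20S core moved apart. PSMG4 rose from 36.0 and 32.1 CPM to 65.3 and 62.8 (0.91 ± 0.12, adjusted p = 3.63e-08). PSMG2 fell from 57.8 and 56.2 CPM to 39.2 and 37.3 (-0.58 ± 0.11, adjusted p = 6.48e-05). PSMG3 lies on chromosome 7 but did not rise with it: at -0.20 ± 0.10 it stood 0.71 under its chromosome (adjusted p = 1.93e-07).

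Among the enzymes at the 19S particle, the deubiquitinase UCHL5 fell from 66.6 and 66.2 CPM to 37.5 and 43.6 (-0.71 ± 0.11, adjusted p = 2.48e-06). The ubiquitin ligase UBE3A, on chromosome 15, fell from 203.1 and 183.7 to 109.5 and 118.6 (-0.76 ± 0.10, adjusted p = 2.82e-08). ZFAND5, which stimulates the proteasome, rose from 88.9 and 77.1 to 183.2 and 182.1 (1.14 ± 0.10, adjusted p = 7.2e-12). PAAF1, which binds ATPase subunits, rose from 6.53 and 6.98 to 9.81 and 10.7 CPM (0.60 ± 0.23, adjusted p = 0.0265).

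The ubiquitin shuttle gene UBQLN4 fell from 9.18 and 10.98 CPM to 5.88 and 5.53 (-0.83 ± 0.24, adjusted p = 0.00406). NFE2L1 did not pass (0.15 ± 0.12), and its relative NFE2L2 was lower by a small amount (-0.30 ± 0.11, adjusted p = 0.0223). MAFF, a small partner protein of these factors, rose from 21.03 and 22.3 CPM to 61.7 and 60.2 (1.49 ± 0.12, adjusted p = 2.49e-12). In the same group of the list, MAFK was called higher (0.29 ± 0.09, adjusted p = 0.00892). VCP was called lower (-0.499 ± 0.09, adjusted p = 1.88e-05), and NGLY1 and MAFG did not pass.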

How the data were processed

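The authors deposited 1 table of read counts per gene for each library. Per the submitters' processing notes, tools used included cutadapt 1.16, STAR 2.5.4a and featureCounts 1.6.2, with genome GRCh38. How reads in overlapping genes were counted is not given in the sources used here. Gene IDs were matched to GENCODE 29 (58552 of 58825). Members, gene lists and comparisons were chosen with earlier results of these data known. The test was edgeR 4.0.16 (filterByExpr, TMM scaling, quasi-likelihood, condition only, Benjamini-Hochberg over all genes tested, threshold 0.05). For the tests against a chromosome or the complex, that median was added to the MET-KO offset and all genes were refitted, the former over chromosomes 1 to 22 and X. The study describes the 2 replicates per group as biological. Whether they were separate clones or cultures is not given, so p-values measure the spread between these libraries. Replicates differed by more than counting noise (chi-square per degree of freedom 5.45 and 4.86). Values are given per library for members on chromosomes 7, 14 and 15, for the 3 largest changes each way and for members past a chromosome or complex test, and for partners called with a log2 fold change of at least 0.5 either way, with ADRM1 and SEM1. The subunit ratios, the neighbouring genes and the 4 promoters shown were chosen after values were seen. Alternatives were DESeq2 1.42.0, other scalings and filters, a replicate block, other reference genes and leaving out libraries. The fits were also run on simulated counts in which chromosomes 7 and 14 were shifted evenly. That simulation did not cover shifts of part of a chromosome, and its outcome is not given here.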

Additional observations from a re-analysis of the deposited data

How the results depend on the processing

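Scaling with DESeq2 size factors left every count of members at its value. With the DESeq2 Wald test 16 members were called (11 higher, 5 lower), as 5272 genes were in all against 7467. Scaling by library total alone moved the median of the members to 0.284 and PSMB6 to 0.0489. Leaving out 1 library gave 15 to 22 members called (fewest without MET+ replicate 2, and 16 without MET+ replicate 1), 10 to 13 apart from their chromosome, 12 to 18 apart from the complex and 16 to 20 partners called. Fewer of all genes were also called in each of these fits. The median of the members then ran from 0.159 to 0.256 and the SD from 0.482 to 0.561. The SD after subtraction of the chromosome ran from 0.350 to 0.432 and the correlation from 0.636 to 0.729. Leaving out 1 library took PSMB6 to between -0.11 and 0.0027, PSMC4 to between -0.16 and 0.19, PSMD4 to between -0.0609 and 0.11 and PSMD7 to between -0.0305 and 0.0644. Taking genes within 5 Mb as reference gave an SD of 0.304 and a correlation of 0.835, with 15 members apart. Added after seeing the data, leaving out PSMB1 gave an SD of 0.460, or 0.282 after subtraction, and a correlation of 0.832, and leaving out PSMA6 and PSMD9 gave 24 called. Nuclear counts only made the ratio of summed shares 1.15. A minimum of 10 counts in every library left 21 members apart from their chromosome, and no filter 12. For the fits in this paragraph, the share of all genes apart from chromosome, neighbours or complex was not worked out. Those counts of members therefore cannot be weighed against a background. Beyond what the construction of each alternative shows, the cause was not tested. Same-numbered libraries did not deviate together (correlation -0.02), so the numbers were not taken as pairs. With the replicate block 19 members were called (13 higher, 6 lower), as 7055 genes were in all against 7467. In that fit 14 members stood apart from their chromosome and 15 from the complex. Depth limits PSMA6, with 11 to 23 counts, most.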
